A study of Mus musculus with 36 samples.

Results

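Early thymic progenitors (ETP), the first T cell precursors in the thymus, were compared with common lymphoid progenitors (CLP), which the submitters label a putative thymus seeding progenitor. The ETP group held the 3 arrays titled ETPFlt3hi_4 to ETPFlt3hi_6 and the CLP group the 4 arrays titled CLP, CLP_1, CLP_2 and CLP_3, together 7 of the 36 one-colour mouse arrays of the series. The comparison bears on how a thymic progenitor with high Flt3 differs in transcripts from a candidate for the cell that seeds the thymus. Both groups came from C57BL6 mice with an age label of 1 week and a sex label that covers males and females, and neither carries a genotype or treatment label. These 7 arrays carry no tissue label, and the gate behind the CLP name is not given in the sources used here. They belong to the second of 2 sets of arrays that were normalized apart. The 3 ETP arrays of the other set were labelled as thymus and as pools of several mice, and enter only an alternative fit over all 36 arrays. The series' design text calls the replicates biological, but the labels of the 7 arrays do not say how many mice stand behind each. The p-values thus measure the spread between arrays within a population. That spread is pooled over the 21 arrays and 7 populations of the second set, not taken from these 7 arrays alone.

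CLP are cells with B, T and innate lymphoid potential, known for interleukin 7 receptor, for the recombinase genes and for early B lineage factors such as Ebf1. Progenitors that reach the thymus meet Notch ligands there, keep Kit and Flt3 for a time, and switch on T lineage genes in steps before the T cell receptor genes are rearranged. ETP still hold myeloid and innate lymphoid potential and have little B cell potential. In sorted bulk samples, fewer cells of a type and less RNA per cell cannot be told apart.

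All levels are log2 RMA values, and all differences are ETP minus CLP on that scale, so that a difference of 1 is a 2-fold change. A probe set was called at a Benjamini-Hochberg adjusted p under 0.05 over all 34945 probe sets that name 1 gene and a difference of at least 1, in a limma fit over the 21 arrays and 7 populations of the second set. Where a gene had several probe sets, the brightest on average over these 21 arrays stood for it. Values of single CLP arrays are given in the order unnumbered, CLP_1, CLP_2 and CLP_3. The lower quartile of all values was 4.45 to 4.60 on the 7 arrays, and levels near or under it may lie in the background of the array.

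The 4 genes that mark this comparison separated the arrays. Fasl, the death ligand used by cytotoxic cells, stood at 8.07, 8.55 and 8.55 on the ETP arrays and 3.86, 4.0, 3.52 and 3.83 on the CLP arrays. Every CLP value was thus under the lower quartile of its array, and the difference was 4.59 ± 0.24 (SE, adjusted p = 1.61e-09). Trbv1, a variable segment of the T cell receptor beta locus, stood at 12.13, 12.04 and 12.08 on the ETP arrays and 8.42, 8.66, 7.94 and 8.59 on the CLP arrays, with a difference of 3.68 ± 0.19 (SE, adjusted p = 1.61e-09). Both groups were tight and far apart for this segment. Ccr9, the chemokine receptor that guides cells to the thymus, stood at 9.03, 9.35 and 9.40 on the ETP arrays and 7.77, 6.84, 7.41 and 7.51 on the CLP arrays. The groups did not overlap, and the difference was 1.88 ± 0.21 (SE, adjusted p = 2.9e-05). Rag1, a subunit of the recombinase, stood at 6.81, 6.86 and 7.05 on the ETP arrays and 10.91, 11.76, 11.62 and 11.16 on the CLP arrays, the largest fall among the probe sets that stand for a gene, at -4.46 ± 0.21 (SE, adjusted p = 3.99e-10). Single probe sets of Sdc1 (-5.18), Ebf1 (-4.93) and Cmah (-4.52) that do not stand for their gene had larger falls. The 4 marking genes were picked with results of these arrays known, so they describe the groups and are not an independent check of the labels.

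Most genes behind the surface gates of such progenitors were not called. Flt3 stood at 10.35, 10.42 and 10.36 on the ETP arrays and 10.54, 11.22, 11.23 and 11.28 on the CLP arrays (difference -0.69, adjusted p = 0.294), so the transcript named in the ETP gate was high in both groups. Kit, the stem cell factor receptor, stood at 9.57 ± 0.18 (SD, n = 3) in ETP and 8.70 ± 0.37 (n = 4) in CLP (difference 0.87, adjusted p = 0.404). Cd44, an adhesion receptor of early thymocytes, had a difference of 0.59 (adjusted p = 0.0709), and Il2ra, the interleukin 2 receptor chain that appears at the next thymic stage, one of 0.94 (adjusted p = 0.0951). Of the measured surface genes only Il7r was called. It stood at 7.94, 9.08 and 8.65 on the ETP arrays and 10.32, 11.08, 10.98 and 10.54 on the CLP arrays, a difference of -2.17 ± 0.23 (SE, adjusted p = 1.45e-05). Il7r was lower on every ETP array than on every CLP array.

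In all, 123 of 18193 genes were called higher in ETP (0.676%) and 92 lower (0.506%), 1.18% in either direction. At the level of probe sets 207 (0.592%) rose and 164 (0.469%) fell, 1.06% in all. The median difference of all genes was -0.03. Arrays of the groups did not overlap in 122 of the 123 genes called higher and in all 92 called lower, beside 12.1% of all genes (2209). A change of 4-fold or more was seen in 18 of the genes called higher and 25 of those called lower. Replicates correlated at 0.987 to 0.990 over all genes in ETP and at 0.974 to 0.981 in CLP, so the CLP arrays were the less uniform group.

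**Figure D1:**
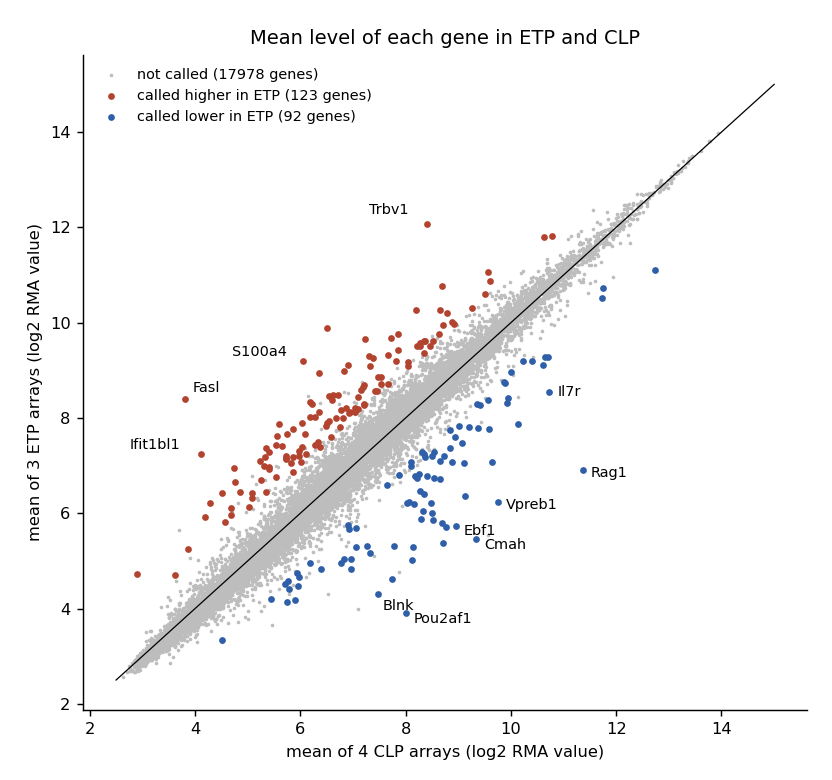
Mean log2 RMA value of each of 18193 genes on the 4 CLP arrays (horizontal axis) and the 3 ETP arrays (vertical axis), with genes called higher in ETP in red (123) and lower in blue (92). Most genes lie near the line of equal levels, and Fasl, Rag1 and Pou2af1 lie farthest from it.

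Part of that spread was in transcripts of mature neutrophils. The mean over 15 late neutrophil genes was 5.25, 7.42, 6.36 and 5.66 on the CLP arrays and 4.94 to 5.0 on the ETP arrays, so CLP_1 and CLP_2 stood highest. Of these genes 0 were called in either direction, although 14 of 15 had a difference below 0 and the median was -0.98. Without the unnumbered CLP array 3 of them were called lower, and in the fit of all 36 arrays 4 were. S100a9, an alarmin of neutrophils, stood at 5.51, 5.58 and 5.52 on the ETP arrays and 6.88, 11.76, 10.38 and 9.22 on the CLP arrays (difference -4.02, adjusted p = 0.0664), and Stfa3, a cysteine protease inhibitor, had a difference of -3.11 (adjusted p = 0.0609). Without CLP_1 and CLP_2, 135 probe sets were called higher and 104 lower, and without ETPFlt3hi_4 alone 96 were called lower.

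Beyond Fasl and Trbv1, the genes that rose most were of several kinds. AW011738, a locus without an assigned function, stood at 10.10, 10.21 and 9.33 on the ETP arrays and 5.99, 7.20, 6.43 and 6.38 on the CLP arrays (difference 3.38, adjusted p = 3.24e-06), with all 3 of its probe sets called. Dzip1, a zinc finger protein of the primary cilium, stood at 8.66, 9.24 and 8.96 on the ETP arrays and 5.90, 6.25, 7.06 and 6.22 on the CLP arrays (difference 2.60, adjusted p = 4.04e-05). Neither gene had an overlap between the groups, as the choice of the largest rises required. Angpt1, the angiopoietin that binds the Tek receptor, stood at 8.95, 9.18 and 9.22 on the ETP arrays and 6.63, 6.77, 6.54 and 7.64 on the CLP arrays (difference 2.22, adjusted p = 1.5e-05). Among the other populations of the set, Angpt1 averaged 9.90 on the stem cell arrays and 6.68 on the DN3 thymocyte arrays, so ETP lay nearer to stem cells than to DN3 in this gene. Trim6, a TRIM family ubiquitin ligase, had a difference of 2.21 (adjusted p = 0.002), which became 2.21 (adjusted p = 0.0625) when only the 7 arrays were fitted. The locus 1810073O08Rik rose by 2.07 and Ankrd6, known as diversin in Wnt signalling, by 2.06 (adjusted p = 0.000558 and 0.0157). Ankrd6 was no longer called without CLP_1 (1.94, adjusted p = 0.0544), without any 1 of the ETP arrays (adjusted p = 0.0638 to 0.0793) or without CLP_1 and CLP_2 (1.78, adjusted p = 0.208).

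**Figure D2:**
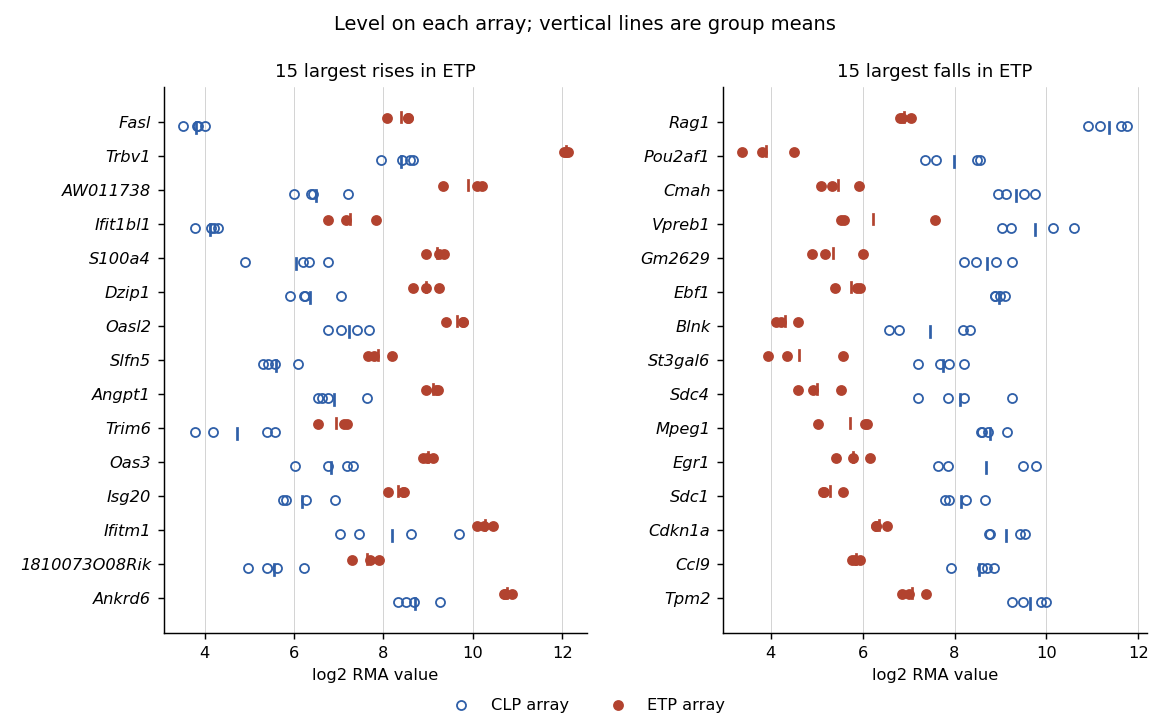
Level on each array (log2 RMA value) of the genes that rose most (15) and fell most (15) in ETP, with filled red points for ETP, open blue points for CLP and vertical lines for group means. The groups do not overlap in any of the 30 genes, as the choice of these genes requires, and the CLP points of Ifitm1 are the most spread, with an SD of 1.20.

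Transcripts from antigen receptor loci were further examples. Other variable segments, named after their values were seen, were also called. Trbv13-2 stood at 7.30, 7.23 and 7.34 on the ETP arrays and 5.04, 5.96, 5.23 and 5.43 on the CLP arrays (difference 1.88, adjusted p = 0.00417), and Trgv4, of the gamma locus, at 6.13, 5.84 and 6.44 on the ETP arrays and 4.92, 4.58, 5.6 and 5.05 on the CLP arrays (difference 1.10, adjusted p = 0.036). In DN3 thymocytes, which rearrange these loci, they averaged 9.15 and 11.13, so Trgv4 in ETP was far below its level there. Trgv4 lost its call in 8 of the refits with fewer arrays, for example without ETPFlt3hi_6 (0.95, adjusted p = 0.224), and when its probe sets were averaged (0.86, adjusted p = 0.0118). Arrays cannot separate germline transcripts of a segment from rearranged ones, and related segments may share probes.

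The homing list had 2 of 18 measured members called higher and 1 lower, with a median of 0.15. Both rises, Ccr9 and Itgb7, belong to the gut and thymus homing receptors. Itgb7, the beta chain of the integrin that pairs with Itga4, stood at 9.19, 8.87 and 9.21 on the ETP arrays and 7.25, 7.44, 7.27 and 7.32 on the CLP arrays (difference 1.77 ± 0.16 SE, adjusted p = 2.08e-06). Its CLP values lay within a narrow band, under every ETP value, while its partner Itga4 had a difference of -0.26 (adjusted p = 0.672). For Ccr9, 4 of 5 probe sets were called higher. S1pr1, the receptor that lets lymphocytes leave tissues, stood at 4.47, 4.74 and 4.50 on the ETP arrays and 5.85, 5.21, 6.24 and 5.78 on the CLP arrays (difference -1.20, adjusted p = 0.0264). The S1pr1 call was lost in the fit of the 7 arrays alone (-1.20, adjusted p = 0.0539), in the fit of all 36 arrays (-0.65, adjusted p = 0.506) and in 6 of the 7 fits that left out 1 array (adjusted p = 0.0574 to 0.129), CLP_1 being the exception. Cd34, a sialomucin of progenitors, had a difference of 0.91 (adjusted p = 0.00502), which passed the p threshold but not the 2-fold one. Ccr7 (-0.32, adjusted p = 0.851), Cxcr4 (-0.17, adjusted p = 0.823) and Selplg (0.03, adjusted p = 0.985), which also serve thymus entry, were not called.

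T lineage factors and signalling genes had 4 of 21 members called higher and 0 lower, with a median of 0.22. Thy1, the surface antigen of T cells, stood at 7.86, 7.56 and 6.70 on the ETP arrays and 4.95, 5.32, 5.33 and 5.82 on the CLP arrays (difference 2.02 ± 0.35 SE, adjusted p = 0.00354). ETPFlt3hi_6 was the lowest of the ETP arrays in Thy1 and still above every CLP array. Tox, an HMG box factor of thymocyte development, stood at 9.63, 9.68 and 9.72 on the ETP arrays and 7.49, 7.85, 7.22 and 8.33 on the CLP arrays (difference 1.95 ± 0.32 SE, adjusted p = 0.00186), with the ETP arrays nearly equal. Cd7, an early T and NK lineage surface protein, rose by 1.35 (adjusted p = 0.000156). The adaptor Lcp2 (SLP-76) rose by 1.38 (adjusted p = 0.000894), and by 0.87 (adjusted p = 0.00558) on the mean of its probe sets, under the 2-fold threshold. Thy1 averaged 7.48 in pro-B cells, beside 7.37 in ETP, and Lcp2 averaged 8.33 on stem cell arrays, beside 7.93 in ETP. Tox and Cd7 averaged less in pro-B cells (6.48 and 5.07) and on stem cell arrays (7.18 and 4.96) than in ETP (9.68 and 6.43). These rises over CLP are thus not all particular to T precursors. The genes of the later T cell receptor complex stayed low in both groups. Cd3e stood at 4.49 ± 0.03 (SD, n = 3) in ETP and 4.62 ± 0.34 (n = 4) in CLP, and Ptcra, which encodes the pre-T alpha chain, at 4.20 ± 0.23 (SD, n = 3) in ETP and 4.17 ± 0.29 (n = 4) in CLP. Gata3 (0.65, adjusted p = 0.325) and Bcl11b (0.10, adjusted p = 0.938), factors of T specification and commitment, were not called.

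Of the Notch receptors, modifiers and targets, 0 of 17 members were called in either direction, and the median was 0.03. Nrarp, a feedback inhibitor induced by Notch, had the largest difference, 1.09 (adjusted p = 0.0962), with levels of 9.0, 9.01 and 8.45 on the ETP arrays and 7.40, 7.83, 8.48 and 7.23 on the CLP arrays. Deptor, an mTOR inhibitor and thymic Notch target, differed by 0.80 (adjusted p = 0.0229) in its standing probe set, but 3 of its 6 probe sets were called higher. These 3 differed by 2.51, 2.96 and 1.84, so the probe sets of Deptor disagree in size. The count of 0 called members thus depends on which probe set stands for Deptor. Notch1 was high in both groups, at 10.94 ± 0.03 (SD, n = 3) in ETP and 10.82 ± 0.26 (n = 4) in CLP, and Hes1 had a difference of 0.42 (adjusted p = 0.707).

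Among E proteins, Id inhibitors and the Ikaros family only Ikzf2 (Helios) was called, 1 of 12 members, with a median of 0.02. It stood at 7.90, 8.15 and 8.0 on the ETP arrays and 5.79, 6.15, 6.41 and 6.74 on the CLP arrays (difference 1.74 ± 0.21 SE, adjusted p = 0.000109), and all 3 of its probe sets were called. Tcf4, an E protein, was lower by a difference of -0.82 (adjusted p = 0.0307), under the 2-fold threshold. Stem cell and progenitor regulators had 2 of 19 members called higher, with a median of -0.13. Mycn, a Myc family factor, stood at 9.22, 9.76 and 9.77 on the ETP arrays and 8.23, 7.87, 8.48 and 8.51 on the CLP arrays (difference 1.31, adjusted p = 0.00206) without overlap. Nfe2, a bZIP factor best known from megakaryocytes, stood at 8.36, 8.92 and 8.48 on the ETP arrays and 6.83, 6.75, 7.55 and 7.48 on the CLP arrays (difference 1.44, adjusted p = 0.0158). The Nfe2 call was lost without CLP_1 (1.3, adjusted p = 0.0579), without ETPFlt3hi_5 (1.27, adjusted p = 0.12) or ETPFlt3hi_6 (1.49, adjusted p = 0.0541), and without CLP_1 and CLP_2 (1.43, adjusted p = 0.0896). Lmo2, a bridging factor of early progenitors, was lower by -0.94 (adjusted p = 0.00439), under the 2-fold threshold. Sox13 and Maf, factors known from gamma delta T cells and named after their values were seen, rose by 1.40 and 1.35 (adjusted p = 0.00109 and 0.00181). Only 1 of 6 Maf probe sets was called, their mean differed by 0.42 (adjusted p = 0.164), and over all 36 arrays Maf was not called (1.38, adjusted p = 0.0957).

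A group of interferon-induced genes was higher in ETP. Interferons signal through Jak kinases and Stat factors, and cells answer with antiviral proteins such as the oligoadenylate synthetases, the IFIT and IFITM proteins and viperin (Rsad2). Of 47 measured genes of this kind 16 were called higher and 0 lower, and 45 had a difference above 0, with a median of 0.83. The list was drawn up after several of its members were seen among the largest rises, so its count describes these arrays and is no independent evidence. To show which sequences these genes share near their starts, the windows from 250 bases before to 50 bases after the start in the RefSeq promoter table (GRCm38.p6) were searched on both strands for the core of the interferon response element, GAAA and again GAAA with any 2 bases between (TTTC and TTTC on the other strand). The 4 windows printed here belong to called members and run 5′ to 3′ on the gene's strand, with each match in capitals.

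Ifit1bl1 (chr19:34601919-34602218, minus strand): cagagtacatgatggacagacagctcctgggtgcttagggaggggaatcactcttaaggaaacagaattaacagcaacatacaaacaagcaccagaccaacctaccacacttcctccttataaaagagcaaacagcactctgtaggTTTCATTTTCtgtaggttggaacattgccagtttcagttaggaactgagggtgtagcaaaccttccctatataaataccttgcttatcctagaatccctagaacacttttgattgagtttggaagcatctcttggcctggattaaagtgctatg

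Oas3 (chr5:120777610-120777909, minus strand): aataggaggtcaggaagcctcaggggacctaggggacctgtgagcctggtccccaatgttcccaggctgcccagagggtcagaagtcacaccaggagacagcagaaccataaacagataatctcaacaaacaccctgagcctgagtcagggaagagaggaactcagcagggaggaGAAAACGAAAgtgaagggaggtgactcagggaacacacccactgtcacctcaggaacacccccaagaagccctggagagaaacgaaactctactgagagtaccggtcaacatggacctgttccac

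Rsad2 (chr12:26456403-26456702, minus strand): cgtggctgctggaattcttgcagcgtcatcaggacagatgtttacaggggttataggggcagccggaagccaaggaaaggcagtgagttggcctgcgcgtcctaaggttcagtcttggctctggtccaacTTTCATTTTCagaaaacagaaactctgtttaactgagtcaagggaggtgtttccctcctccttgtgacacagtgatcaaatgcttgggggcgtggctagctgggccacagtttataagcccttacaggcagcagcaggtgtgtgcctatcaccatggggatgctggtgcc

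Ifit3 (chr19:34583279-34583578, plus strand): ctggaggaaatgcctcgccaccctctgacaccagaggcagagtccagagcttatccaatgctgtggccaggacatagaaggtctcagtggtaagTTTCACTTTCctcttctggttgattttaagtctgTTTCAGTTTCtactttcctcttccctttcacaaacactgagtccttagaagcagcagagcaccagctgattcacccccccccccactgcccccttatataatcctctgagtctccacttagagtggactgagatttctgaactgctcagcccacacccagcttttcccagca

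The first base of the first match lay at position -104 from the start in Ifit1bl1, -75 in Oas3, -120 in Rsad2 and -156 in Ifit3, where a second match follows. A match was found in 9 of the 12 called members with a window and in 11 of the 23 members with a window that were not called, beside 3.99% of all 27025 genes and 3.44% of all 32851 windows. The match says only that these letters are in the window.

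Ifit1bl1 stood at 7.83, 6.76 and 7.16 on the ETP arrays and 4.21, 4.14, 4.31 and 3.79 on the CLP arrays (difference 3.14 ± 0.50 SE, adjusted p = 0.00161). All its CLP values were below the lower quartile of the arrays, so it was near background there. Oasl2, an oligoadenylate synthetase-like protein, stood at 9.78, 9.78 and 9.39 on the ETP arrays and 6.75, 7.06, 7.42 and 7.67 on the CLP arrays (difference 2.42 ± 0.20 SE, adjusted p = 8.99e-07), and Oas3, a synthetase that activates RNase L, at 8.97, 9.10 and 8.89 on the ETP arrays and 6.77, 7.31, 6.03 and 7.19 on the CLP arrays (difference 2.16 ± 0.34 SE, adjusted p = 0.00153). In both genes the ETP arrays were close together and more than 1 unit above the highest CLP array. Rsad2, whose product blocks viral replication, stood at 9.23, 9.36 and 9.31 on the ETP arrays and 7.11, 7.39, 7.07 and 7.62 on the CLP arrays (difference 2.00 ± 0.21 SE, adjusted p = 1.83e-05), with all 3 probe sets called. Slfn5, a Schlafen family protein, stood at 7.65, 8.19 and 7.80 on the ETP arrays and 5.30, 5.58, 5.43 and 6.08 on the CLP arrays (difference 2.28 ± 0.30 SE, adjusted p = 0.00021), and Isg20, an exonuclease, at 8.44, 8.47 and 8.10 on the ETP arrays and 5.82, 6.92, 5.75 and 6.26 on the CLP arrays (difference 2.15 ± 0.28 SE, adjusted p = 0.000171). None of these 6 genes had an overlap between the groups, which the choice of the largest rises required of all but Rsad2. Called with smaller differences were the RNA sensor Ifih1 (1.92), the ISG15 protease Usp18 (1.91), the DNA sensor family member Ifi213 (1.86), the GTPases Iigp1 (1.85) and Mx1 (1.23), the receptor chaperone Rtp4 (1.27), Ifit3 (1.33) and the membrane proteins Ifitm1 (2.07), Ifitm2 (1.28) and Ifitm3 (1.03).

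Ifitm1, 1 of the 15 largest rises, had widely spread CLP values, with 10.09, 10.46 and 10.25 on the ETP arrays and 8.62, 7.45, 7.03 and 9.68 on the CLP arrays. Its call was lost with the 7 arrays alone (2.07, adjusted p = 0.176), without CLP_1 (1.83, adjusted p = 0.0505), without ETPFlt3hi_5 (1.98, adjusted p = 0.0804) or ETPFlt3hi_6 (2.08, adjusted p = 0.0566), and without CLP_1 and CLP_2 (1.12, adjusted p = 0.151). Iigp1 lost its call with the 7 arrays alone (1.85, adjusted p = 0.101), in 4 of the 7 fits that left out 1 array (adjusted p = 0.0503 to 0.173) and without CLP_1 and CLP_2 (1.35, adjusted p = 0.248). Ifitm3 lay at the fold threshold and lost its call in 9 alternatives besides the limma treat test against 1.5-fold, with differences of 0.83 to 1.03. The list had 13 to 16 called members when 1 array was left out and 13 with the 7 arrays alone. It had 16 without CLP_1 and CLP_2, where Ifitm1, Iigp1 and Ifitm3 were lost and other members were called. Its members are related in sequence within the IFIT, IFITM, OAS and Schlafen families, so that probes may be shared between copies.

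Among transcription factors of the same response, Irf7, Stat2, Irf9 and Irf1 were not called. Irf7, an interferon regulatory factor that is itself induced, differed by 0.86 (adjusted p = 0.00905), under the 2-fold threshold, and Stat2 (0.42, adjusted p = 0.667), Irf9 (-0.14, adjusted p = 0.934) and Irf1 (0.45, adjusted p = 0.276) did not pass the p threshold. Of 7 interferon receptor chains and kinases 0 were called, with a median of -0.03. Ifnar1 had a difference of -0.34 (adjusted p = 0.611) and Ifnar2 one of 0.05 (adjusted p = 0.958). The mean level of the interferon-induced list was 8.0 to 8.18 over the ETP arrays and 7.05 to 7.24 over the CLP arrays, which do not overlap. It was 7.70 to 7.89 on the 2 ETP arrays titled adult, which carry the 1 week age label of all arrays, 7.44 to 7.53 on stem cell arrays, 6.98 to 7.32 on the LSKFlt3hi IL7R+ arrays, 6.76 to 6.93 in DN3 thymocytes and 6.59 to 6.83 in pro-B cells. The ETP arrays thus had the highest values of the set, followed by adult ETP. Because the list was drawn up after members were seen among the largest rises in ETP, this order is partly given by that choice.

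**Figure D3:**
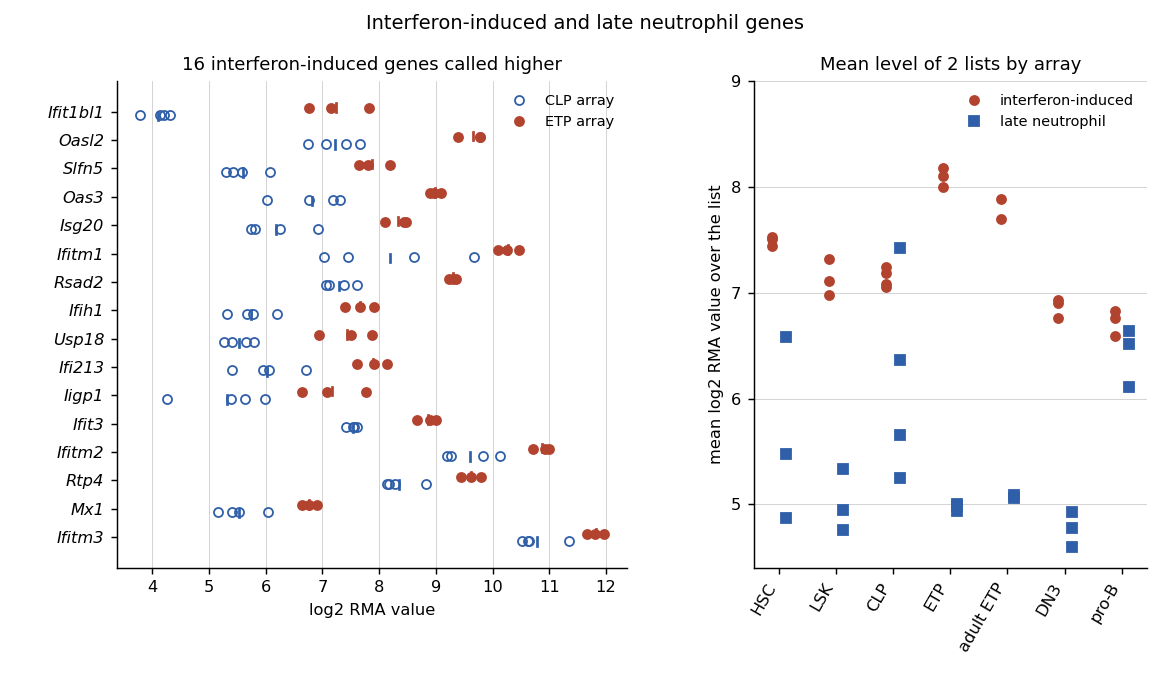
Left, level on each array (log2 RMA value) of the 16 interferon-induced genes called higher in ETP, with open blue points for CLP, filled red points for ETP and vertical lines for group means. Right, mean log2 RMA value over the interferon-induced list (red circles) and the late neutrophil list (blue squares) on each of the 21 arrays of the set, in which ETP is highest for the first and CLP_1 for the second. The interferon-induced list was drawn up after several members were seen among the largest rises in ETP.

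S100 proteins, annexins and related genes of migrating and activated cells had 3 of 11 members called higher and 0 lower, with a median of 0.62. S100a4, a calcium-binding protein of motile cells, stood at 8.96, 9.35 and 9.25 on the ETP arrays and 6.21, 6.33, 4.91 and 6.75 on the CLP arrays (difference 3.13 ± 0.31 SE, adjusted p = 9.03e-06). CLP_2 was the lowest array, and no CLP array reached the ETP level, as the choice of the largest rises required. S100a6 rose by 1.44 and Anxa5, annexin V, by 1.18 (adjusted p = 0.00279 and 0.00854). Without CLP_1 and CLP_2, S100a6 was at 1.29 (adjusted p = 0.0629) and Anxa5 at 0.84 (adjusted p = 0.165), so that only S100a4 was still called. Anxa5 also lost its call with the 7 arrays alone (1.18, adjusted p = 0.0697) and without ETPFlt3hi_5 (1.06, adjusted p = 0.0741), and dropped under the fold threshold without CLP_2 (1.00, adjusted p = 0.0285) and over all 36 arrays (0.98, adjusted p = 0.0167). Vim, vimentin, was higher by 0.81 (adjusted p = 0.00246), under the 2-fold threshold. The mean level of the list was 8.77 to 8.93 in ETP and 7.69 to 8.26 in CLP. It was 9.0 to 9.16 on stem cell arrays, above every ETP array, so the ETP level is not particular to ETP.

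Cytokine receptors and their kinases had 2 of 27 members called higher and 1 lower (Il7r), with a median of -0.05. Il18r1, a chain of the interleukin 18 receptor, stood at 7.72, 6.77 and 7.68 on the ETP arrays and 6.14, 6.43, 5.72 and 5.83 on the CLP arrays (difference 1.36, adjusted p = 0.00885), and Il17rb, the receptor for interleukin 25, rose by 1.22 (adjusted p = 0.00144). Il18r1 lost its call with the 7 arrays alone (1.36, adjusted p = 0.0625) and without ETPFlt3hi_4 (1.20, adjusted p = 0.0807) or ETPFlt3hi_6 (1.22, adjusted p = 0.076). Named after their values were seen, Il12rb2 stood at 8.73, 8.56 and 8.17 on the ETP arrays and 6.77, 6.23, 6.11 and 7.35 on the CLP arrays (difference 1.87, adjusted p = 0.0132) and Il1r1, the interleukin 1 receptor, at 7.66, 8.16 and 8.58 on the ETP arrays and 6.43, 5.79, 6.01 and 7.16 on the CLP arrays (difference 1.79, adjusted p = 0.00801). Both stood apart from every CLP array, with CLP_3 the nearest. Without CLP_1 and CLP_2 they were at 1.42 (adjusted p = 0.238) and 1.34 (adjusted p = 0.177). Il12rb2 was also lost without ETPFlt3hi_4 (1.75, adjusted p = 0.0859) or ETPFlt3hi_5 (1.83, adjusted p = 0.0704), and Il1r1 without ETPFlt3hi_6 (1.56, adjusted p = 0.0715), with the 7 arrays alone (1.79, adjusted p = 0.0561) and averaged over both of its probe sets (0.92, adjusted p = 0.00956). The fetal and neonatal list had 0 of 7 members called, with a median of -0.13, and Hmga2 in it was lower by -0.98 (adjusted p = 0.00439), under the 2-fold threshold.

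Cytotoxic, NK and innate lymphoid genes had 3 of 22 members called higher and 0 lower, with a median of -0.01. Besides Fasl these were Nkg7, a granule membrane protein, at 8.37, 8.49 and 8.47 on the ETP arrays and 6.78, 7.22, 7.33 and 7.09 on the CLP arrays (difference 1.34, adjusted p = 0.000126), and the protease Gzma. Gzma stood at 4.63, 6.18 and 4.92 on the ETP arrays and 3.86, 4.04, 3.82 and 3.77 on the CLP arrays (difference 1.37, adjusted p = 0.0119). ETPFlt3hi_5 alone was well above the CLP arrays for Gzma, and without it the gene was at 0.90 (adjusted p = 0.0681). It was also lost with the 7 arrays alone (1.37, adjusted p = 0.124) and without CLP_1 and CLP_2 (1.43, adjusted p = 0.0772). The defining NK genes were low in both groups, Ncr1 at 3.75 ± 0.17 (SD, n = 3) in ETP and 3.78 ± 0.13 (n = 4) in CLP and Eomes at 3.89 ± 0.14 (SD, n = 3) in ETP and 3.94 ± 0.05 (n = 4) in CLP. The mean level of the list was 5.34 to 5.55 in ETP and 5.11 to 5.23 in CLP, Fasl included. Fas, the receptor of the Fasl product, was at 3.69 ± 0.13 (SD, n = 3) in ETP and 3.89 ± 0.17 (n = 4) in CLP, and of the Bcl2 family and death receptor list Fasl was the single called member of 15, with a median of 0.08. Bcl2, the survival factor downstream of interleukin 7, had a difference of -0.76 (adjusted p = 0.0865).

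MHC class II genes went both ways, 1 of 8 called higher and 1 lower, with a median of 0.36. Cd74, the invariant chain, stood at 7.44, 8.13 and 7.91 on the ETP arrays and 6.51, 6.75, 6.36 and 6.34 on the CLP arrays (difference 1.34, adjusted p = 0.000157), and H2-Aa (0.98, adjusted p = 0.0275) and H2-Eb1 (0.61, adjusted p = 0.0174) differed in the same direction under the 2-fold threshold. H2-Ob, a chain of the modulator of peptide loading found in B cells, stood at 8.4, 8.58 and 8.16 on the ETP arrays and 8.63, 10.12, 10.11 and 9.40 on the CLP arrays (difference -1.18, adjusted p = 0.0297). CLP_1 and CLP_2 were highest for H2-Ob, and without them its difference was -0.63 (adjusted p = 0.412). Its call was lost as well with the 7 arrays alone (-1.18, adjusted p = 0.223) and in 5 of the 7 fits that left out 1 array (adjusted p = 0.0705 to 0.176). The mean level of the dendritic cell and macrophage list was 5.27 to 5.32 in ETP and 5.22 to 5.50 in CLP, with 0 of 16 members called and a median of -0.09.

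Cell cycle genes had 5 of 33 members called higher and 1 lower, with a median of 0.46 and 23 members above 0. The fall was the larger change. Cdkn1a, the p21 inhibitor of cyclin-dependent kinases, stood at 6.52, 6.28 and 6.30 on the ETP arrays and 8.75, 9.54, 8.78 and 9.43 on the CLP arrays (difference -2.76 ± 0.32 SE, adjusted p = 6.26e-05), with both of its probe sets called and at least 2 units between the groups. Ube2c, an E2 enzyme of the anaphase-promoting complex, stood at 11.01, 11.16 and 11.05 on the ETP arrays and 9.82, 9.81, 9.02 and 9.63 on the CLP arrays (difference 1.5 ± 0.21 SE, adjusted p = 0.000459). The other rises were in mitotic genes, namely Prc1 (1.19) and Nusap1 (1.13) of the spindle midzone and microtubules, the kinase Aurka (1.18) and the kinesin Kif20a (1.10). Each of these 4 lost its call in several alternatives, and with the 7 arrays alone only 2 members were called higher. Prc1 had an adjusted p of 0.0651 to 0.138 in the 4 fits without 1 array that lost it, Aurka was at 1.16 (adjusted p = 0.0501) without ETPFlt3hi_5 and at 1.20 (adjusted p = 0.064) without CLP_1 and CLP_2, Nusap1 at 1.13 (adjusted p = 0.0802) and Kif20a at 1.10 (adjusted p = 0.0654) with the 7 arrays alone. Kif20a was lost without CLP_2 (0.96, adjusted p = 0.0333), ETPFlt3hi_4 (1.07, adjusted p = 0.0551) or ETPFlt3hi_5 (1.05, adjusted p = 0.0598), and Nusap1 dropped just under the fold threshold without CLP_3 (0.99, adjusted p = 0.00807) or ETPFlt3hi_6 (1.00, adjusted p = 0.0278). Averaged over its probe sets Aurka was at 0.67 (adjusted p = 0.0109) and Nusap1 at 0.69 (adjusted p = 0.0065). The replication genes Pcna (-0.07, adjusted p = 0.92) and Mcm6 (-0.12, adjusted p = 0.936) and the proliferation antigen Mki67 (0.23, adjusted p = 0.554) were high in both groups and not called.

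**Figure D4:**
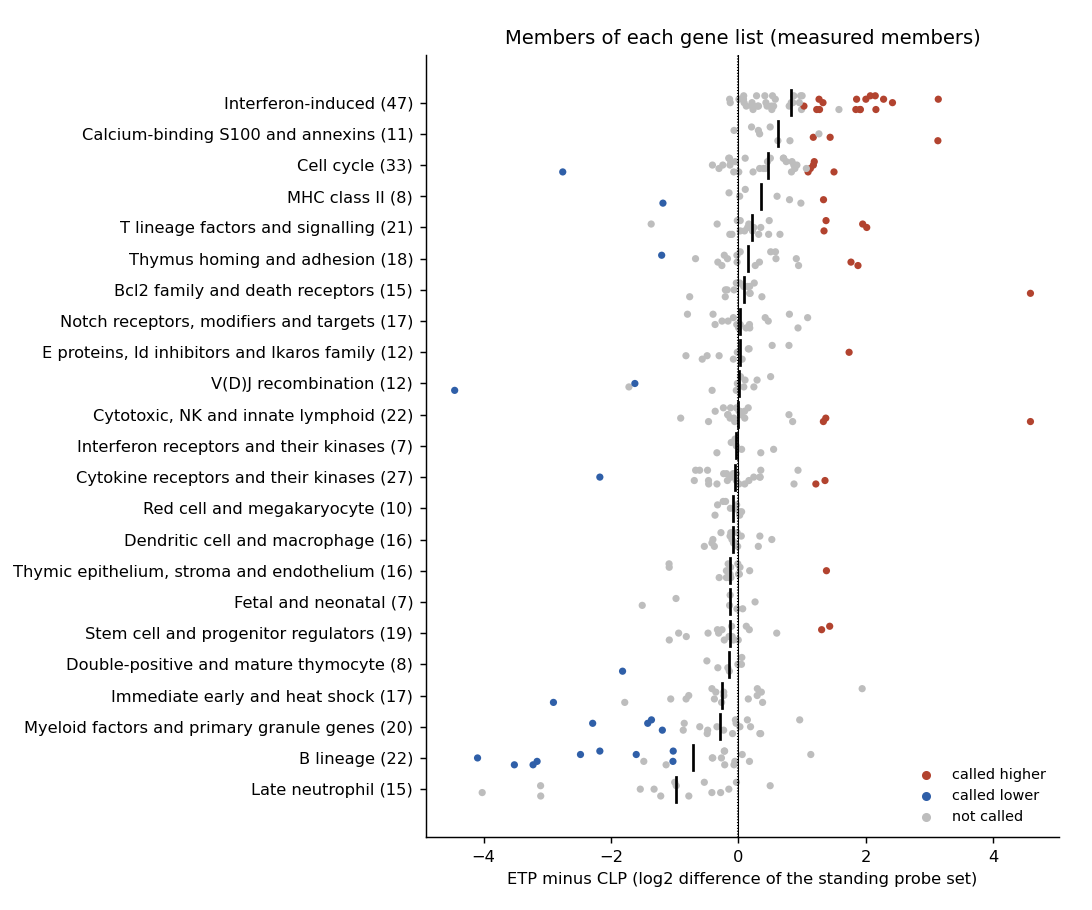
Difference between ETP and CLP (log2 scale, horizontal axis) of each measured member of 23 gene lists, with the number of members beside the name, red points for members called higher, blue for lower and grey for those not called, and a black bar at the median. B lineage members lie to the left and interferon-induced members to the right, and the late neutrophil members have a median of -0.98 with 0 called in this fit.

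The V(D)J recombination list had 2 of 12 members called lower (3 with the 7 arrays alone) and 0 higher, with a median of 0.01. Besides Rag1 the fall was in Dntt, the terminal transferase that adds bases at the joints, which stood at 11.21, 11.51 and 10.58 on the ETP arrays and 12.54, 12.87, 13.05 and 12.45 on the CLP arrays (difference -1.62 ± 0.21 SE, adjusted p = 0.000156). Dntt was abundant in both groups, and all 3 of its probe sets were called lower. Rag2, the partner of Rag1, stood at 8.27, 8.61 and 8.4 on the ETP arrays and 9.75, 10.51, 10.13 and 10.19 on the CLP arrays (difference -1.72, adjusted p = 0.16). It was not called in the fit over 7 populations, although every ETP array lay under every CLP array. The general end-joining genes Xrcc5 (0.51, adjusted p = 0.614), Xrcc6 (-0.41, adjusted p = 0.72) and Lig4 (-0.01, adjusted p = 0.995) were not called either. Rag1 averaged 7.17 on the adult ETP arrays, 11.75 on the LSKFlt3hi IL7R+ arrays, 12.65 in DN3 thymocytes and 11.19 in pro-B cells. ETP and adult ETP were thus the only lymphoid populations of the set with low Rag1. Dntt differed between them, at 12.65 in adult ETP.

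B lineage genes made up the largest group of falls, with 9 of 22 members called lower, 0 higher and a median of -0.72. Among the 9 was Il7r, which is counted in the cytokine receptor list as well. It is not confined to B lineage cells here, with means of 10.16 in DN3 thymocytes and 10.57 in pro-B cells. Ebf1, the factor that specifies the B lineage, stood at 5.39, 5.88 and 5.94 on the ETP arrays and 8.89, 8.89, 9.09 and 8.98 on the CLP arrays (difference -3.22 ± 0.19 SE, adjusted p = 7.02e-09). The CLP arrays were nearly equal in Ebf1, and all 5 probe sets were called lower. Pou2af1 (OBF-1), a B cell coactivator, stood at 3.82, 3.38 and 4.51 on the ETP arrays and 7.59, 8.56, 8.48 and 7.35 on the CLP arrays (difference -4.10 ± 0.50 SE, adjusted p = 0.000109). Vpreb1, a part of the surrogate light chain, stood at 5.52, 7.58 and 5.59 on the ETP arrays and 9.03, 10.14, 10.59 and 9.23 on the CLP arrays (difference -3.52 ± 0.48 SE, adjusted p = 0.000288), and ETPFlt3hi_5 was higher than the other ETP arrays. Blnk, the adaptor of B cell receptor signalling, stood at 4.12, 4.59 and 4.22 on the ETP arrays and 6.58, 8.33, 8.19 and 6.79 on the CLP arrays (difference -3.16 ± 0.33 SE, adjusted p = 1.51e-05). Cd79a, the signalling chain of the B cell receptor, stood at 5.29, 5.48 and 5.15 on the ETP arrays and 6.51, 8.53, 9.0 and 7.09 on the CLP arrays (difference -2.48 ± 0.41 SE, adjusted p = 0.0023). No ETP array reached a CLP array in any of these 5 genes, which the choice of the largest falls required of all but Cd79a.

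In Pou2af1, Vpreb1, Blnk and Cd79a the highest CLP arrays were CLP_1 and CLP_2, the same arrays that were highest in late neutrophil transcripts. Without them 7 B lineage members were still called lower. Cd79b (-1.02) and Cd24a (-1.03), which lay at the fold threshold, were then at -0.68 (adjusted p = 0.26) and -0.89 (adjusted p = 0.235). Cd79b was also lost without CLP_1 (-0.94, adjusted p = 0.0514), CLP_2 (-0.88, adjusted p = 0.0482), ETPFlt3hi_4 (-0.95, adjusted p = 0.0897) or ETPFlt3hi_5 (-1.02, adjusted p = 0.0657) and with the 7 arrays alone (-1.02, adjusted p = 0.0858), as was Cd79a (-2.48, adjusted p = 0.0957). Cd24a was lost without CLP_1, CLP_2 or any 1 of the ETP arrays (adjusted p = 0.0588 to 0.11). Leaving out 1 array at a time gave 7 to 10 members called lower, which need not be the same genes. Foxo1, a factor that acts upstream of Il7r and Rag1, stood at 7.32, 7.79 and 7.32 on the ETP arrays and 8.65, 9.0, 9.56 and 9.11 on the CLP arrays (difference -1.60 ± 0.21 SE, adjusted p = 0.000171).

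Pax5, the commitment factor, was not called at -1.48 (adjusted p = 0.054), with levels of 5.89, 5.52 and 5.80 on the ETP arrays and 6.10, 7.48, 8.51 and 6.79 on the CLP arrays. Igll1 (-0.27, adjusted p = 0.783), Cd22 (-0.22, adjusted p = 0.841) and Ms4a1 (-0.21, adjusted p = 0.866), which mark committed B cells, were not called, and Ms4a1 stood low in both groups at 4.37 ± 0.13 (SD, n = 3) in ETP and 4.58 ± 0.33 (n = 4) in CLP. Bst1, an ectoenzyme first described on marrow stroma, pointed the other way at 1.14 (adjusted p = 0.114) and was not called. Named after its value was seen, Tnfrsf13c, the BAFF receptor of B cells, stood at 7.86, 7.84 and 7.92 on the ETP arrays and 10.04, 10.39, 9.84 and 10.23 on the CLP arrays (difference -2.25 ± 0.19 SE, adjusted p = 1.14e-06). Mean levels of the B lineage list were 6.21 to 6.32 in ETP, 7.12 to 7.69 in CLP and 9.44 to 9.62 in pro-B cells, so CLP lay between ETP and pro-B cells. The LSKFlt3hi IL7R+ arrays, at 7.93 to 8.02, stood above every CLP array, so these levels are not particular to CLP. Ets1, a factor of both lymphoid lineages named after its value was seen, fell by 1.29 (adjusted p = 0.00648) in its standing probe set. Its most variable probe set was not called (-1.62, adjusted p = 0.17), nor was the gene without CLP_1 and CLP_2 (-0.99, adjusted p = 0.151).

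The promoter windows of the called B lineage members were searched for a palindrome bound by EBF1, TCCC and GGGA with any 2 bases between (the same letters on both strands). Among the 7 called members with a window, 1 had a match, Foxo1, as did 1 of the 9 members that were not called, beside 1.06% of all 27025 genes. The Foxo1 window is printed with the match in capitals, whose first base lies at position -92 from the start.

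Foxo1 (chr3:52268087-52268386, plus strand): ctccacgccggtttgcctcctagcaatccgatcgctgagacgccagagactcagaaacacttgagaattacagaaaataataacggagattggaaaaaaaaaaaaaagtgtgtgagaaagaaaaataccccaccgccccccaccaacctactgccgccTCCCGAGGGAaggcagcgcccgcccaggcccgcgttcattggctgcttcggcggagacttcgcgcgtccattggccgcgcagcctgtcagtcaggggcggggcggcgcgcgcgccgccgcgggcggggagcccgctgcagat

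**Figure D5:**
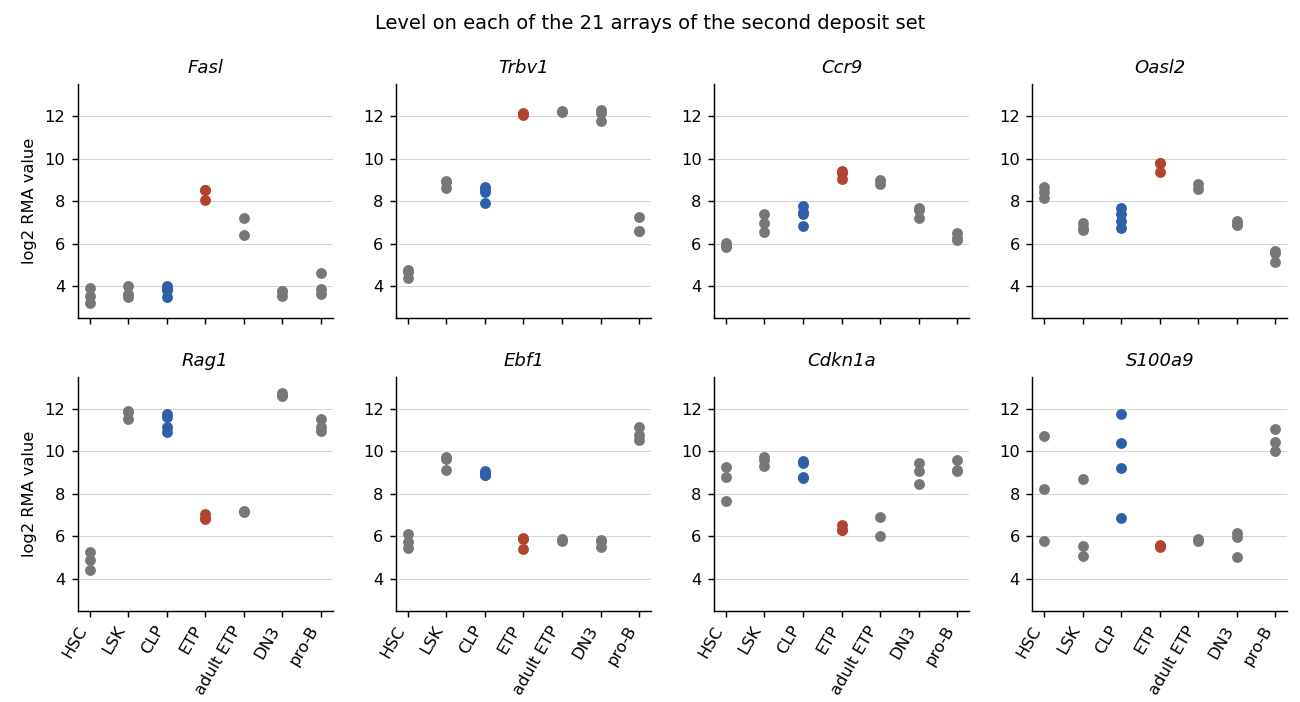
Level (log2 RMA value) of 8 genes on each of the 21 arrays of the second set, by population, with CLP in blue, ETP in red and the other populations in grey. Fasl and Oasl2 are highest in ETP, Rag1 and Cdkn1a are low in ETP and adult ETP beside CLP and DN3, and S100a9 varies widely between arrays of CLP and of stem cells.

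Some of the largest falls were in genes of the cell surface glycans. These were grouped after their values were seen. Cmah, the hydroxylase that makes N-glycolylneuraminic acid, stood at 5.92, 5.34 and 5.10 on the ETP arrays and 9.13, 9.76, 8.95 and 9.52 on the CLP arrays (difference -3.89 ± 0.27 SE, adjusted p = 8.15e-08), with all 6 probe sets called lower. St6gal1, which adds sialic acid in alpha 2,6 linkage, stood at 5.83, 6.31 and 6.52 on the ETP arrays and 8.30, 8.71, 8.93 and 8.0 on the CLP arrays (difference -2.27 ± 0.25 SE, adjusted p = 2.29e-05). Both separated the groups fully, which the choice of the largest falls required of Cmah. St3gal6, which adds it in alpha 2,3 linkage, stood at 5.57, 3.94 and 4.35 on the ETP arrays and 7.21, 8.20, 7.87 and 7.68 on the CLP arrays (difference -3.12 ± 0.31 SE, adjusted p = 9.03e-06), but only 1 of its 5 probe sets was called and their mean differed by -0.98 (adjusted p = 0.0114). The proteoglycan core proteins Sdc4 and Sdc1, syndecans that carry heparan sulfate, differed by -3.11 ± 0.39 (SE, adjusted p = 0.000123) and -2.86 ± 0.27 (SE, adjusted p = 4.97e-06). Chst2, a sulfotransferase of N-acetylglucosamine, was called in the other direction at 1.89 (adjusted p = 0.0132). It lost its call without ETPFlt3hi_4 (1.8, adjusted p = 0.0807) or ETPFlt3hi_6 (1.81, adjusted p = 0.0763) and without CLP_1 and CLP_2 (1.66, adjusted p = 0.175), and the mean of its probe sets differed by 0.67 (adjusted p = 0.0237).

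Myeloid factors and primary granule genes had 4 of 20 members called lower and 0 higher, with a median of -0.28. Irf8, a factor of monocyte, dendritic and B cell development, stood at 5.92, 6.18 and 6.01 on the ETP arrays and 7.57, 8.36, 8.72 and 8.66 on the CLP arrays (difference -2.29 ± 0.25 SE, adjusted p = 3.06e-05). The unnumbered CLP array was the lowest of its group and still above every ETP array. Fcer1g, the Fc receptor gamma chain, and Ly86 (MD-1), the secreted partner of a Toll-like receptor homologue, differed by -1.42 (adjusted p = 0.00446) and -1.36 (adjusted p = 0.00192). Lyz2, the lysozyme of macrophages and neutrophils, had a difference of -1.19 (adjusted p = 0.0275). Without CLP_1 and CLP_2 the Lyz2 difference was -0.82 (adjusted p = 0.347), and the call was also lost without CLP_1, CLP_2 or any 1 of the ETP arrays (adjusted p = 0.0686 to 0.162). The primary granule genes Mpo (-0.85, adjusted p = 0.815), Elane (-0.05, adjusted p = 0.969) and Prtn3 (-0.49, adjusted p = 0.508) were not called, nor was Spi1 (-0.09, adjusted p = 0.941), which encodes PU.1. Gfi1, a repressor active in granulocyte and lymphoid progenitors, was higher by 0.96 (adjusted p = 0.00687), under the 2-fold threshold. Mpeg1 (perforin-2), a macrophage pore protein, stood at 5.02, 6.05 and 6.09 on the ETP arrays and 8.58, 9.15, 8.60 and 8.73 on the CLP arrays (difference -3.04 ± 0.24 SE, adjusted p = 5.09e-07), and the chemokine Ccl9 differed by -2.66 ± 0.30 (SE, adjusted p = 3.14e-05). Neither is in a list here, and both were among the 15 largest falls.

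The remaining large falls were Gm2629, a predicted gene (-3.34 ± 0.35 SE, adjusted p = 1.7e-05), and Tpm2, a tropomyosin (-2.58 ± 0.34 SE, adjusted p = 0.00021). Cd93, a surface marker of early lymphoid progenitors (AA4) named after its value was seen, stood at 10.33, 10.70 and 10.50 on the ETP arrays and 11.62, 11.93, 11.71 and 11.68 on the CLP arrays (difference -1.22 ± 0.16 SE, adjusted p = 0.000234). Rgs1, a regulator of G protein signalling, and Serpinb6b, a serpin, were named in the same way and rose by 1.91 (adjusted p = 0.00648) and 2.06 (adjusted p = 0.00215). Rgs1 was at 1.97 (adjusted p = 0.0551) without CLP_1 and CLP_2. The receptor kinase Axl rose by 1.27 (adjusted p = 0.0103), and was not called over all 36 arrays (1.48, adjusted p = 0.0529), with the 7 arrays alone (1.27, adjusted p = 0.0585), when its probe sets were averaged (0.53, adjusted p = 0.0789), without ETPFlt3hi_5 or ETPFlt3hi_6 (adjusted p = 0.0993 and 0.0637) or without CLP_1 and CLP_2 (1.25, adjusted p = 0.0772).

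Immediate early and heat shock genes had 1 of 17 members called lower and 0 higher, with a median of -0.26. Egr1, a factor induced within minutes of stimulation, stood at 6.15, 5.78 and 5.43 on the ETP arrays and 9.50, 7.64, 7.85 and 9.78 on the CLP arrays (difference -2.90 ± 0.55 SE, adjusted p = 0.00653). The unnumbered array and CLP_3 were well above the other CLP arrays, and all 4 were above ETP, as the choice of the largest falls required. Fos (-1.78, adjusted p = 0.505) and Jun (-0.23, adjusted p = 0.943) of the same response were not called. The mean level of this list was 6.63 to 7.05 in ETP and 6.77 to 7.88 in CLP. On the adult ETP arrays it was 7.76 to 8.75. Egr1 averaged 8.74 there, near its CLP mean of 8.69, so adult ETP did not share the low Egr1 of ETP.

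Of other cells that the gates could hold, the thymocyte, stromal and red cell lists had at most 1 called member each. These lists are too short to compare with the 1.18% of all genes called. The B lineage and cytotoxic lists above, with 9 of 22 and 3 of 22 members called, also mark such cells. Of 8 double-positive and mature thymocyte genes 1 was called, Cd69, an activation antigen that stood at 5.85, 6.10 and 6.76 on the ETP arrays and 8.03, 7.80, 8.38 and 8.02 on the CLP arrays (difference -1.82, adjusted p = 0.00199). Over all 36 arrays Cd69 was at -1.49 (adjusted p = 0.157). Cd69 averaged 8.97 on the LSKFlt3hi IL7R+ arrays, 7.79 in adult ETP, 6.92 in pro-B cells and 4.05 in DN3 thymocytes. It is thus not confined to thymocytes in this set. Cd4 and Cd8a had differences of -0.14 (adjusted p = 0.898) and -0.16 (adjusted p = 0.872), and the mean of this list was 5.54 to 5.74 in ETP and 5.89 to 6.17 in CLP. Among thymic epithelial, stromal and endothelial genes 1 of 16 was called higher, Pdgfrb, the platelet-derived growth factor receptor beta, at 9.29, 9.10 and 9.18 on the ETP arrays and 7.62, 7.76, 8.15 and 7.70 on the CLP arrays (difference 1.38, adjusted p = 0.000838). The epithelial genes Epcam (0.03, adjusted p = 0.987) and Psmb11 (0.02, adjusted p = 0.99), and Pdgfra (-0.13, adjusted p = 0.926), a stromal receptor, had differences near 0. The mean of the stromal list was 5.71 to 5.84 in ETP and 5.80 to 5.97 in CLP. Red cell and megakaryocyte genes had 0 of 10 members called, with a median of -0.09 and mean levels of 5.03 to 5.26 and 5.15 to 5.45. The part of such cells in the called differences was not tested.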

How the data were processed

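Total RNA of sorted cells was amplified with a NuGEN WT-Ovation Pico kit and hybridised as biotin-labelled cDNA, 1 sample per array, per the labels. Expression is given as log2 values, which the authors made with RMA and deposited, per the submitters' processing notes. RMA corrects background, normalizes arrays to one another, summarises probes and is known to compress fold changes at low levels. The log base is not stated, and the values were read as log2. The 15 arrays whose labels give a tissue and a pooling remark and the 21 arrays without them were normalized apart, to judge by array medians of 5.12 to 5.22 and 5.84 to 5.95, so the comparison was made among the latter. Of 45101 probe sets 64 controls, 932 naming several genes and 9160 without a listed gene were left out, which left 34945 probe sets and 18193 genes, 9010 of them with several probe sets. Arrays give no read depth, and their number limits the precision.

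Differences came from lmFit and eBayes of limma (version 3.58.1, under R 4.3.3), fitted to 7 populations with 14 residual degrees of freedom, and adjusted p-values are Benjamini-Hochberg values from that fit over all probe sets unless an alternative is named. Counts were made in Python 3.11.15 (pandas 2.3.3, numpy 2.4.6) and plots in matplotlib 3.10.9. Scripts were tested on simulated data. Named genes are, among called genes without overlap between groups, the 15 largest rises and 15 largest falls, up to 3 called members of each list (or, with none called, the 2 of smallest p), the gate genes and the 4 markers. Other members are examples of their list, and genes named after their values were seen are said to be so. The members, lists and rules were chosen with earlier results of these data known. The Notch factor motif was not searched, since no Notch list member was called in its standing probe set. A few listed genes, Tcf7 and Ly6a among them, were not analysed here. Alternatives changed the arrays fitted, scaling, weights, filter, fold rule and summary of probe sets. The interferon lists, their motif and the genes outside the rule were added after seeing the data.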

Additional observations from a re-analysis of the deposited data

Results flagged for a closer look

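In a group of 4, an array is given here when its gap to the nearest other array takes up nearly the whole range of the group by Dixon's test, which chance gives in about 1 in 20 groups. Among 102 genes looked at in the CLP group, 3 had such an array, which is no more than that rate gives by chance. Flt3 was lowest on the unnumbered CLP array, at 10.54 against a group median of 11.23, so that the array titled without a number stood under the other 3 in a gene common to progenitor gates. Plagl1, an imprinted zinc finger gene, was also lowest on that array, at 6.05 against a median of 7.19, and it was not called between ETP and CLP at -1.51 (adjusted p = 0.418). Ifitm3 was highest on CLP_3, at 11.35 against a median of 10.63, and each ETP array stood above that value, at 11.67 or more.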

How the results depend on the processing

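Of 89 called genes named in the text or its lists, 38 lost their call in none of the 20 alternatives. Leaving the limma treat test against 1.5-fold aside, 57 lost it in none, and 0 reversed. A gene whose probe set was removed by the filter for low mean was counted as not lost there. The alternative without a fold threshold could not lose a call. The treat test called 51 probe sets higher and 49 lower, beside 207 and 164. Without CLP_1 and CLP_2, the arrays of highest late neutrophil mean, the counts were 135 and 104. Leaving out 1 array at a time gave 147 to 206 higher and 96 to 179 lower, the 96 without ETPFlt3hi_4, and fits with fewer arrays have fewer degrees of freedom. The other counts stayed within 1.5 times of those reported. The 7 arrays alone gave 161 and 116, all 36 arrays with a term for the set 233 and 174, array weights 258 and 207, and no fold threshold 309 and 214. Counted by gene, 123 higher and 92 lower became 116 and 86 on the mean of each gene's probe sets. With 3 against 4 arrays, genes of moderate change near 2-fold moved in and out of the calls. Low probe sets may sit at background, and no detection calls were used here. No paired analysis was possible because the titles number the ETP arrays 4 to 6 and the CLP arrays 1 to 3 or not at all, so the groups share no number.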
